A study of Mus musculus with 6 samples.

Results

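Genes of cholesterol and fatty acid synthesis were examined for NF-YA occupancy in cultured mouse muscle stem cells (MuSCs). The list held 46 genes, found in the deposited peak table by gene symbol, and a gene with no row was counted as having no annotated peak. At least 1 peak was annotated to 33 of the 46 genes, giving 45 of the 9056 peaks in the table. The genes were sorted into 7 roles, running from control of the SREBP factors through the mevalonate pathway, the squalene and sterol ring steps and sterol transport to fatty acid synthesis, elongation and desaturation, and the activation of fatty acids and assembly of phospholipids.

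The cells were wild type MuSCs of the C57BL/6 strain, grown in vitro and labelled as activated/proliferating, with no treatment and no animal age given in the labels. CUT&RUN, in which an antibody guides a nuclease to its target on immobilised cells and the released DNA is sequenced, was done with an antibody to NF-YA in 3 libraries and with mouse IgG in 3 more. Levels of the 3 NF-YA libraries are reported as normalised reads, which are reads per peak divided by the size factor of the library and rounded, without correction for peak length. IgG levels were not analysed here, and a label of MuSCs cannot be checked against marker expression in data of this kind. With 1 group of 3 libraries no test between conditions exists, and the smallest two-sided p that sign changes over 3 libraries allow is 0.25. All comparisons are therefore descriptions with the spread over libraries, which the labels number but do not tie to separate cultures or animals. Reads in peaks were estimated at 477041, 226958 and 334651 in replicates 1, 2 and 3, and 3 reads corresponded to 2.01, 4.43 and 3.06 normalised reads. These estimates do not follow sequencing depth. The paper lists shorter reads and fewer uniquely mapped reads for replicate 1 than for replicates 2 and 3. Every spread over libraries includes this difference, and its effect was not tested.

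Cells make cholesterol from acetyl-CoA through the mevalonate pathway, which also yields the isoprenoid chains used to anchor proteins in membranes, and fatty acids from the same precursor through malonyl-CoA. Both branches are classical targets of the sterol regulatory element-binding proteins (SREBPs), membrane-bound transcription factors that are released when sterols are scarce and that work together with partner factors on promoters. NF-Y is a trimer of NF-YA, NF-YB and NF-YC that recognises the CCAAT box, and it is a textbook partner of the SREBPs on lipid synthesis promoters.

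Sequences under the mevalonate peaks are shown first because this role had the highest median level of the list. They were read from RefSeq GRCm38.p6, the assembly of mm10, on the strand of the gene. Capitals mark CCAAT or its reverse complement ATTGG, and matches to the sterol element TCACNCCAC or its reverse complement with at most 1 mismatch. Where a stretch touched a 5′ UTR only a short window around 1 box is given.
*Hmgcs1* upstream group, chr13:119690073-119690232, plus strand: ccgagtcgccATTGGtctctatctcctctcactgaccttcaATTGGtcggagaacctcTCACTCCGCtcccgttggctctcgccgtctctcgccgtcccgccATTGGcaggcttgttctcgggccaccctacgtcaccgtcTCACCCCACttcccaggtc
*Hmgcs1* group next to the start, chr13:119690296-119690375, plus strand: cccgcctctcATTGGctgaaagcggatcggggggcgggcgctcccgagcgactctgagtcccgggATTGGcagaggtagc
*Mvk* box 1, chr5:114444086-114444110, plus strand: gctgtttcctATTGGcctggggcac
*Mvk* box 2, chr5:114444139-114444163, plus strand: cttgattcccATTGGattacttgta
*Mvk* box 3, chr5:114444192-114444216, plus strand: tgaagttcccATTGGttaatgtttg
*Ggps1* upstream pair, chr13:14063634-14063699, minus strand: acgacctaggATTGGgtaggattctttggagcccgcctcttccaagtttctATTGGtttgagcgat
*Mvd* pair, chr8:122443435-122443492, minus strand: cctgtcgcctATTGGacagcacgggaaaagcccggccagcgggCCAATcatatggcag
*Idi1* box 1, chr13:8885551-8885575, plus strand: cctccagctgATTGGcgagcccggg
*Idi1* box 2, chr13:8885582-8885606, plus strand: ccaaggtgccATTGGctggcgaccg

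The *Hmgcs1* peak held 5 boxes, all written ATTGG on the strand of the gene, and it was the only member promoter peak with an exact match to the sterol element. The 3 *Mvk* boxes shown also read ATTGG and lay 53 bp apart. The *Mvk* peak held 5 boxes, and the next one, 17 bp on, read CCAAT on the strand of the gene. So did the *Ggps1* box nearest to its start, which is not shown either.

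In all, 33 of 46 genes (71.7%) had an annotated peak, compared with 19.0% of 21951 protein-coding genes. A promoter peak, with its centre within 1000 bp of the listed transcription start site (TSS), was annotated to 31 of 46 genes (67.4%), compared with 14.8% of protein-coding genes. When any peak within 1000 bp of any annotated transcript start was accepted, the count was 35 of 46 (76.1%), compared with 19.1%. The list was proposed with results of these data in view, so these shares are given without a test.

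The 33 promoter peaks of the list had median levels of 60, 58 and 69 normalised reads in replicates 1, 2 and 3, and the 3746 promoter peaks of the table had medians of 29, 28 and 30. The log2 ratio of these medians was 1.10 ± 0.088 (SD, n = 3 libraries), a 2.14-fold difference. Of the 33 peaks, 25 lay above the median promoter peak and 5 lay in the top 10%. All 33 exceeded the level of 3 reads in every library. Member peaks were also longer, with a median of 325 bp against 250 bp. Per kb of peak the medians of the means were 178 and 117, and the log2 ratio of the medians was 0.61.

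**Figure D1:**
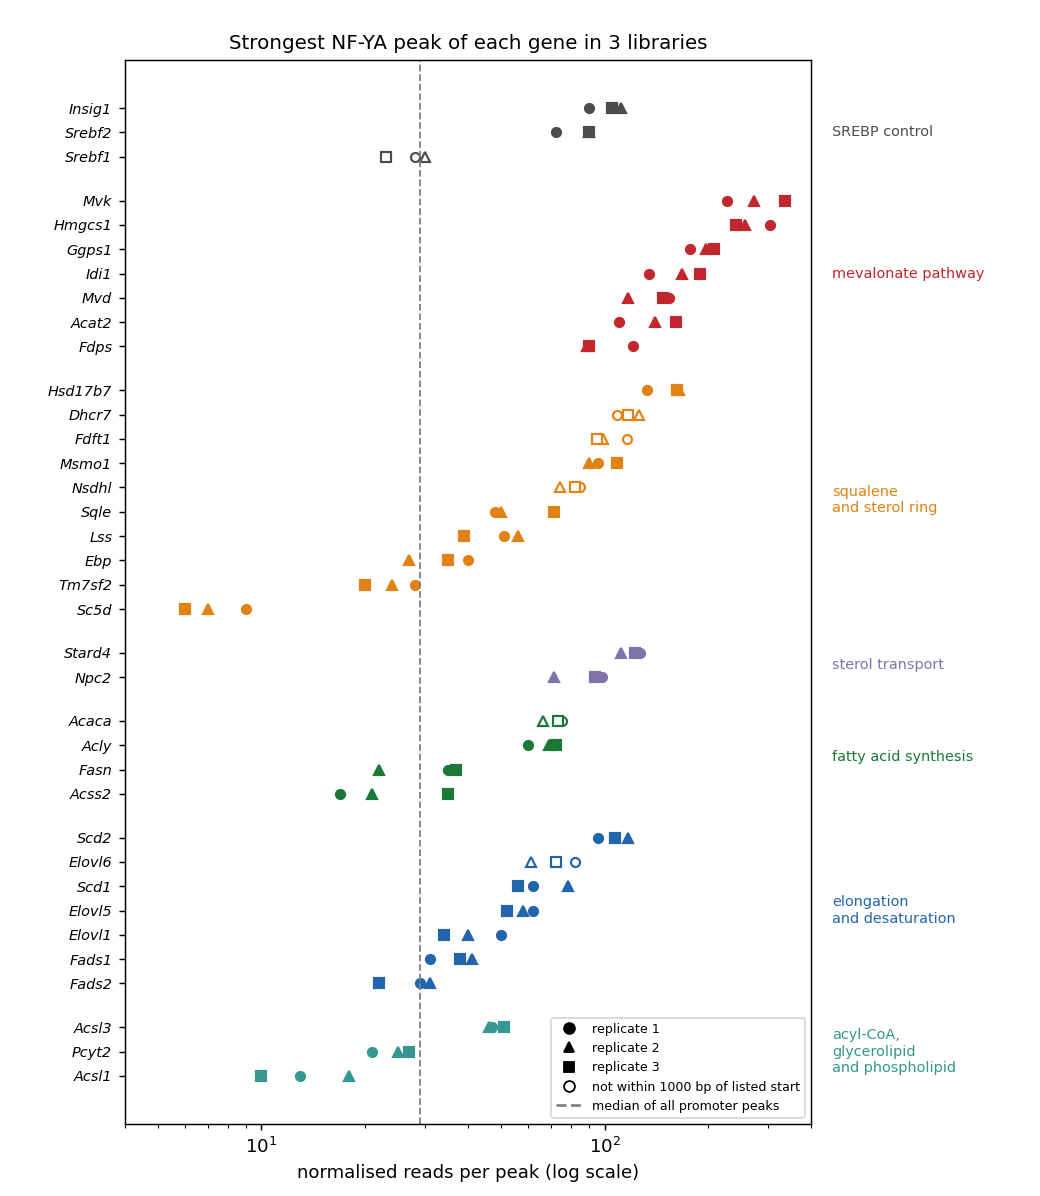
Normalised reads (log axis) in each of the 3 NF-YA libraries for the strongest peak of each of 36 genes, grouped by role and ordered by mean within a role, with the median of all promoter peaks (29) as a dashed line. The 7 mevalonate genes lie between 89 and 335 in every library, whereas the sterol ring genes run from 6 (*Sc5d*) to 165 (*Hsd17b7*). Open symbols mark peaks that are not promoter peaks by the listed start.

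The mevalonate pathway builds the C5 isoprenoid units and joins them, and 7 of its 8 listed genes had a promoter peak. Their medians were 154, 168 and 190 normalised reads, 2.55 ± 0.13 (SD, n = 3) log2 units above the median of all promoter peaks, or 5.87-fold. Their peaks were longer as well, with a median of 616 bp, and per kb of peak the difference was 1.51 ± 0.24 log2 units (2.84-fold). All 7 exceeded the median promoter peak and 4 were in the top 10% of promoter peaks. *Pmvk*, the phosphomevalonate kinase, had none, and the nearest peak to any of its starts was 17902 bp away.

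*Mvk*, the mevalonate kinase, had 228, 273 and 335 normalised reads in replicates 1, 2 and 3 (mean 279 ± 53.7, SD, n = 3), more than 96.9% of all promoter peaks. *Hmgcs1*, the cytosolic HMG-CoA synthase, had 303, 256 and 242 (267 ± 32). *Mvk* was below *Hmgcs1* in replicate 1 and above it in replicates 2 and 3, so the order of these peaks was not settled. *Ggps1*, which makes geranylgeranyl diphosphate, had 177, 198 and 209 (195 ± 16.3). It lay below both in every library.

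*Idi1*, the isopentenyl diphosphate isomerase, had 135, 168 and 190 (164 ± 27.7). *Mvd*, the mevalonate diphosphate decarboxylase, had 154, 117 and 148 (140 ± 19.9), and *Acat2*, a cytosolic thiolase that forms acetoacetyl-CoA, had 110, 140 and 162 (137 ± 26.1). The ranges of these 3 genes overlapped, although *Idi1* was above *Acat2* in every library. *Fdps*, the farnesyl diphosphate synthase, had 121, 89 and 90 (100 ± 18.2) and was below *Mvd* in each library, although its highest value exceeded the lowest values of *Acat2* and *Mvd*.

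Replicate 1, the library with the shorter reads, was the lowest for *Mvk*, *Ggps1*, *Idi1* and *Acat2* and the highest for *Hmgcs1*, *Mvd* and *Fdps*. Variance over libraries, divided by the variance that counting alone would give, averaged 4.24 over the 7 mevalonate peaks and 1.85 over all 33 member promoter peaks, and it reached 9.81 for *Mvk*. The mean for all promoter peaks was 1.93. At a given relative spread this ratio rises with the level of the peak. The median coefficient of variation (SD over mean) was 16.8% for the mevalonate peaks and 19.6% for all promoter peaks. The *Mvk* peak was also centred within 1000 bp of a start of *Mmab*, that of *Ggps1* of *Arid4b* and that of *Fdps* of *Gm43738*, so these values cannot be split between the neighbours.

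**Figure D2:**
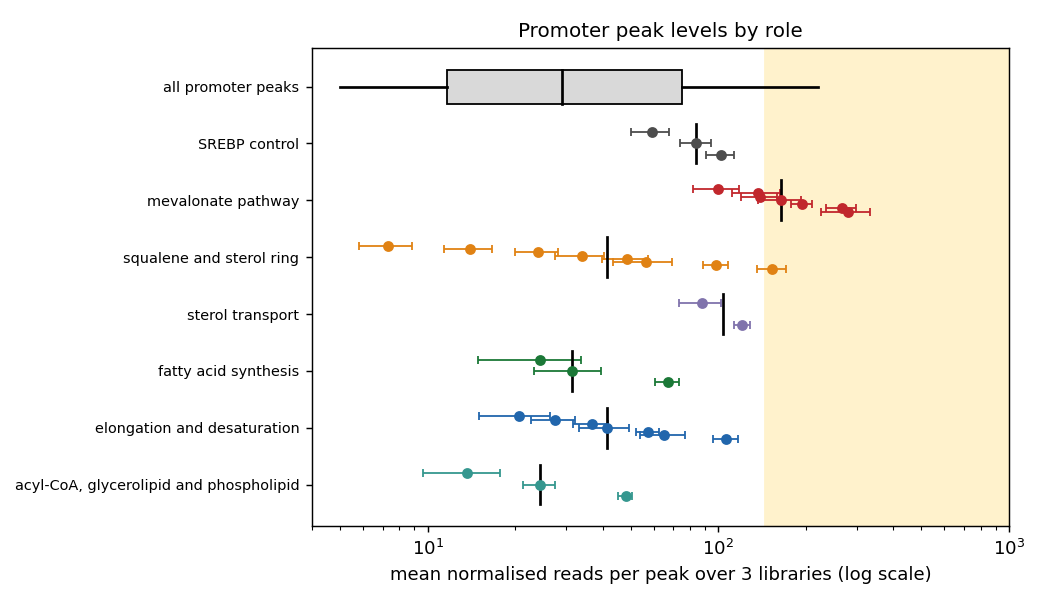
Mean normalised reads per promoter peak over 3 libraries (log axis) for each role, with horizontal bars for the SD and a vertical line for the median of the role. The grey box spans the interquartile range of all promoter peaks, with whiskers to the 5th and 95th percentiles, and the shaded area is their top 10%, which holds 4 mevalonate peaks and *Hsd17b7*.

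The squalene and sterol ring steps join farnesyl units to squalene, close the rings and trim them to cholesterol. Promoter peaks were annotated to 8 of the 11 listed genes, with medians of 44, 38.5 and 37, which was 0.45 ± 0.15 log2 units above all promoter peaks. The mevalonate median exceeded that of the ring genes by 2.1 ± 0.28 log2 units (4.28-fold) and did so in 3 of 3 libraries. Per kb of peak the difference was 1.48 ± 0.043 log2 units (2.80-fold). With the strongest peak at any transcript start of each gene, which brings 10 ring genes into the comparison, it was 1.29 ± 0.098 (2.44-fold).

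Within the ring genes levels varied widely. *Hsd17b7*, the 3-ketosteroid reductase of the pathway, had 133, 165 and 163 (154 ± 17.9), and *Msmo1*, the C4-methylsterol oxidase, had 96, 90 and 109 (98.3 ± 9.71). The oxidosqualene step followed at lower levels. *Sqle*, the squalene epoxidase, had 48, 50 and 71 (56.3 ± 12.7) and *Lss*, the lanosterol synthase, had 51, 56 and 39 (48.7 ± 8.74), with overlapping values.

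*Ebp*, the sterol isomerase, had 40, 27 and 35 (34.0 ± 6.56), and *Tm7sf2*, a sterol C14 reductase, had 28, 24 and 20 (24.0 ± 4.00). *Sc5d*, the sterol C5 desaturase, had the lowest promoter peak of the list at 9, 7 and 6 (7.33 ± 1.53). *Sc5d* lay below all other promoter peaks of the list in each library, but these values rest on few reads.

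For some ring genes the strongest peak lay at a transcript start other than the listed one. *Fdft1*, the squalene synthase, had 13, 12 and 17 normalised reads at its listed start and 116, 99 and 95 (103 ± 11.2) in a peak 1527 bp inside the listed gene, in a 5′ UTR and 254 bp upstream of another annotated start. The inner peak was 2.81 ± 0.34 log2 units higher, in 3 of 3 libraries. *Dhcr7*, the last-step reductase, had 109, 126 and 117 (117 ± 8.50) in a peak 6982 bp from its listed start but 51 bp from another one, and 19, 22 and 24 in a second peak 454 bp away. Both genes would be read as weak or without a promoter peak from the listed starts alone.

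*Nsdhl*, a C4-decarboxylating dehydrogenase, had no peak in its name, but the peak annotated to *Cetn2* was centred 77 bp from an *Nsdhl* start and had 85, 74 and 82 normalised reads (80.3 ± 5.69). It held 4 boxes. *Cyp51*, the lanosterol demethylase, was 507245 bp from the nearest peak. A gene without an annotated row could thus have a strong peak at its start under the name of a neighbour, or none nearby.

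A few boxes and sterol-like elements of the ring genes are shown as examples.
*Sqle* pair, chr15:59314906-59314984, plus strand: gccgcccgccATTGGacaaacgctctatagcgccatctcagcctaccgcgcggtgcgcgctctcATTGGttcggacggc
*Fdft1* inner peak, sterol-like element, chr14:63177945-63177973, minus strand: tcaacgtccgTCAGTCCACtccgcgcgtc
*Hsd17b7* sterol-like element, chr1:169969284-169969312, minus strand: cggtctgggcGTGGAGAGAagatgccgag
*Msmo1* box, chr8:64733660-64733684, minus strand: ttagcacggaCCAATcactgcacgg
*Dhcr7* stronger peak, box 1, chr7:143830119-143830143, plus strand: actgccttcaCCAATcacaggacgc
*Nsdhl* box 3, chrX:72918519-72918543, plus strand: gtgagcgtcaATTGGttgcgccaga

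Distances between boxes and elements are from centre to centre. The *Sqle* boxes lay 54 bp apart in 1 orientation. The elements shown were 16 bp from the nearest box in *Fdft1* and 22 bp in *Hsd17b7*. The *Msmo1* box was 6 bp from a sterol-like element and overlapped it by 1 base. In the *Msmo1* window only the box is in capitals.

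Control of the SREBPs rests on SCAP, which escorts them to the Golgi, and on the INSIG proteins, which hold the complex in the endoplasmic reticulum. *Srebf2*, which encodes the SREBP tied mainly to cholesterol genes, had 72, 90 and 90 normalised reads (84.0 ± 10.4) in a peak 110 bp upstream of its start. *Insig1* had 2 promoter peaks. The upstream one had 56, 52 and 69 (59.0 ± 8.89), and one in an intron, 638 bp downstream of the start, had 90, 112 and 105 (102 ± 11.2). The intronic peak was 0.79 ± 0.27 log2 units higher and was the higher one in 3 of 3 libraries.

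*Srebf1*, which encodes the SREBP forms tied mainly to fatty acid genes, had no peak in its name. A peak 38 bp from an internal *Srebf1* transcript start, annotated to another gene model, had 28, 30 and 23 normalised reads (27.0 ± 3.61), below *Srebf2* in each library. The peaks nearest to *Scap* and *Insig2* were 28207 and 28083 bp from their starts.

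*Srebf2* and *Insig1* stretches are given because each places a sterol-like element near a box, or boxes in a row, in 1 promoter of the control genes.
*Srebf2*, chr15:82147097-82147148, plus strand: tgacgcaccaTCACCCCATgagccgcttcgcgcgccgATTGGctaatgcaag
*Insig1* upstream peak, chr5:28071148-28071210, plus strand: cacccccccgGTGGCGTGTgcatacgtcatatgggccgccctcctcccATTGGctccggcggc
*Insig1* intronic peak, chr5:28071959-28072078, plus strand: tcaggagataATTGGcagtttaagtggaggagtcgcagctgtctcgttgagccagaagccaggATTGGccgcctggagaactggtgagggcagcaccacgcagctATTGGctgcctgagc

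The intronic *Insig1* peak held 3 boxes in 1 orientation, 53 and 42 bp apart. In *Srebf2* the element and the box lay 25 bp apart. All 5 boxes in promoter peaks of the control genes read ATTGG on the strand of the gene.

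**Figure D3:**
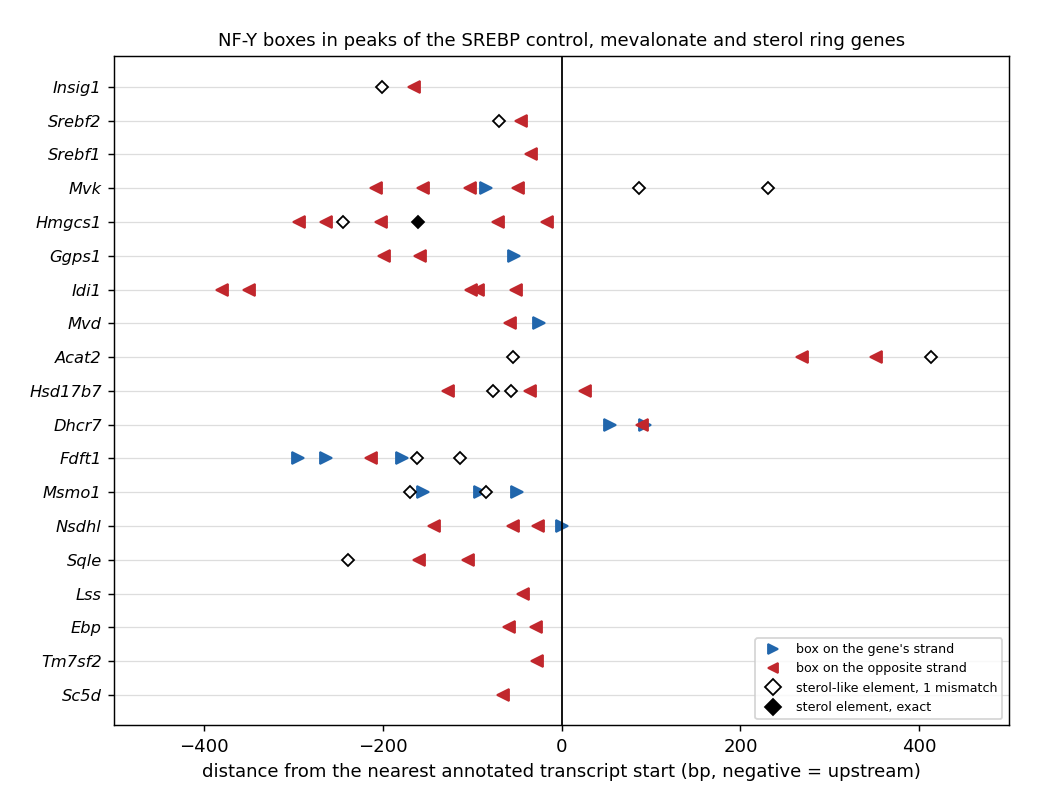
Positions of CCAAT boxes and sterol elements in peaks of SREBP control, mevalonate and sterol ring genes (*Fdps* is not drawn), in bp from the nearest annotated transcript start (negative is upstream), within 500 bp. Left-pointing red triangles are boxes on the strand opposite to the gene and right-pointing blue ones are on its strand. The exact sterol element (filled diamond) is in *Hmgcs1*. The 3 intronic *Insig1* boxes lie beyond the plotted range.

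Sterol transport moves cholesterol between membranes. *Stard4*, a soluble sterol carrier, had 127, 112 and 123 normalised reads (121 ± 7.77) over 5 boxes. *Npc2*, a lysosomal cholesterol-binding protein, had 98, 71 and 94 (87.7 ± 14.6) in a peak also close to a start of *Isca2*. *Stard4* was the higher one in each library. *Npc1*, the membrane partner of *Npc2*, was 25690 bp from the nearest peak.

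Genes of fatty acid synthesis, elongation, desaturation, activation and phospholipid assembly together had 13 promoter peaks with medians of 35, 40 and 37, or 0.36 ± 0.13 log2 units above all promoter peaks. The mevalonate median was 2.19 ± 0.15 log2 units (4.56-fold) higher than theirs, again in 3 of 3 libraries, and per kb of peak it was 1.31 ± 0.29 (2.47-fold) higher. These 13 peaks had between 13.7 and 107 normalised reads on average, and none was in the top 10% of promoter peaks.

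In the synthesis of fatty acids, *Acly*, which supplies cytosolic acetyl-CoA from citrate, had 60, 69 and 72 (67.0 ± 6.24). *Fasn*, the fatty acid synthase, had 35, 22 and 37 (31.3 ± 8.14) in its promoter peak, near the median of all promoter peaks, and 7, 15 and 16 in a second peak 1019 bp upstream. *Acss2*, which makes acetyl-CoA from acetate, had 17, 21 and 35 (24.3 ± 9.45) in a peak also close to a start of *Ggt7*. *Acly* was above *Fasn* and *Acss2* in every library, and *Fasn* was above *Acss2* in every library, by 1 normalised read in replicate 2 and 2 in replicate 3.

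*Acaca*, the acetyl-CoA carboxylase of lipogenesis, had no peak in its name but a peak 266 bp from 1 of its starts, annotated to another gene model, with 75, 66 and 73 normalised reads (71.3 ± 4.73). *Acacb*, the mitochondrial form, and *Me1*, which supplies NADPH, were 14645 and 46836 bp from the nearest peak.

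All 7 listed elongases and desaturases had an annotated peak, and 6 had a promoter peak. *Scd2*, a stearoyl-CoA desaturase, had 96, 117 and 107 normalised reads (107 ± 10.5) in a promoter peak in its 5′ UTR and 96, 111 and 112 (106 ± 8.96) in a peak 9338 bp upstream. The log2 ratio of the pair was 0.0033 ± 0.070, so the levels differed by less than the spread over libraries. The 3 weak peaks inside *Scd2* averaged 5.67 to 11.3, and 2 of their values lay at or below 3 reads, 1 in replicate 1 and 1 in replicate 2. *Scd1*, the related desaturase, had 62, 78 and 56 (65.3 ± 11.4) at its promoter and 19, 16 and 27 in a second peak 491 bp upstream. The *Scd2* promoter was higher than that of *Scd1* in each library.

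*Elovl5*, an elongase of polyunsaturated chains, had 62, 58 and 52 (57.3 ± 5.03) at its promoter, and a second peak 6563 bp upstream had 5, 6 and 14. The promoters of *Elovl1*, *Fads1* and *Fads2* averaged 41.3, 36.7 and 27.3. *Elovl6*, which extends palmitate, had its only peak in an intron, 4036 bp from the listed start, with 82, 61 and 72 (71.7 ± 10.5). That peak held 2 boxes 42 bp apart and the only other exact sterol element among the 45 member peaks.

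Stretches of the desaturase, elongase and synthase peaks are shown because of their box pairs and sterol elements.
*Scd1* promoter pair, chr19:44407911-44407978, minus strand: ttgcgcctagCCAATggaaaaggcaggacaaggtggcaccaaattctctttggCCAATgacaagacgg
*Scd2* promoter, box 1, chr19:44293943-44293967, plus strand: ttgtgcagagCCAATgagagcagca
*Scd2* promoter, box 2, chr19:44293986-44294010, plus strand: ttcccatcggCCAATgactagccag
*Scd2* upstream peak, chr19:44284308-44284371, plus strand: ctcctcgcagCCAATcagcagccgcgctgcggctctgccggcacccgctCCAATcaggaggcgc
*Elovl6* intronic peak, chr3:129536337-129536455, plus strand: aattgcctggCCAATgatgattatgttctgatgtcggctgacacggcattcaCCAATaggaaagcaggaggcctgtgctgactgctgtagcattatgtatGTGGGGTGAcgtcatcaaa
*Fads1*, chr19:10182833-10182875, plus strand: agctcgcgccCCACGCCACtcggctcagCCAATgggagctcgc
*Fasn*, chr11:120824592-120824647, minus strand: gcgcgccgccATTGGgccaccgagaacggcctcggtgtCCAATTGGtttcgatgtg

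The promoter boxes of *Scd1* and *Scd2* lay 43 bp apart in both genes and in the same orientation. Aligned box to box, 52 of the 68 bases of the window were identical (76.5%). Reads that map to several places were removed by the authors, which lowers values wherever near-identical copies exist. Whether this touched the *Scd1* or *Scd2* values was not tested. The *Fasn* stretch held 3 boxes, of which the last 2 overlap in opposite orientations and share bases.

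Acyl-CoA synthetases trap fatty acids in the cell as CoA esters. *Acsl3* had 47, 46 and 51 normalised reads (48.0 ± 2.65) at its promoter, also close to a start of *Utp14b*, and 17, 22 and 13 in a peak 8351 bp upstream. *Pcyt2*, of phosphatidylethanolamine synthesis, had 21, 25 and 27 (24.3 ± 3.06), and *Acsl1* had 13, 18 and 10 (13.7 ± 4.04) in a peak without a box. *Gpam*, *Lpin1* and *Pcyt1a* had no annotated peak, with the nearest peak 12165, 1886 and 359303 bp from their starts.

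CCAAT lay within 50 bp of the peak centre in 26 of the 33 member promoter peaks (78.8%), compared with 64.6% of all promoter peaks. Length bears on this share: it was 77.9% among the 1193 promoter peaks of the table in the middle length range of the members. The 78.8% covers member peaks of all lengths, so it is not matched in length to the 77.9%. A box was present anywhere in 31 of 33 member promoter peaks (93.9%), compared with 79.0% of all promoter peaks and 92.7% of those in the middle length range. The promoter peaks without a box were those of *Acsl1* and the listed *Fdft1* start.

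Member peaks with more boxes had higher median levels. The 8 member peaks without a box averaged between 5.67 and 17.3 normalised reads, the 12 with 1 box had a median of 39.0, the 14 with 2 boxes a median of 68.5, and the 11 with 3 or more a median of 121. Medians over all 9056 peaks were 8.67, 15, 33.3 and 102 for the same classes. These sets differ in kind: 33 of the 45 member peaks were promoter peaks, compared with 3746 of the 9056. The median level was 29 for all promoter peaks and 15 for all peaks. Longer peaks hold more boxes, and the median length of member peaks was 174 bp without a box and 435 bp with 3 or more. Per kb the member medians were 76.3, 134, 220 and 293, and those of all peaks were 58.0, 81.8, 127 and 239. *Fasn*, at 31.3 with 3 boxes, was the lowest of its class, but 2 of its boxes overlap and were counted separately. *Srebf2*, at 84.0 with 1 box, was the highest of its own class.

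**Figure D4:**
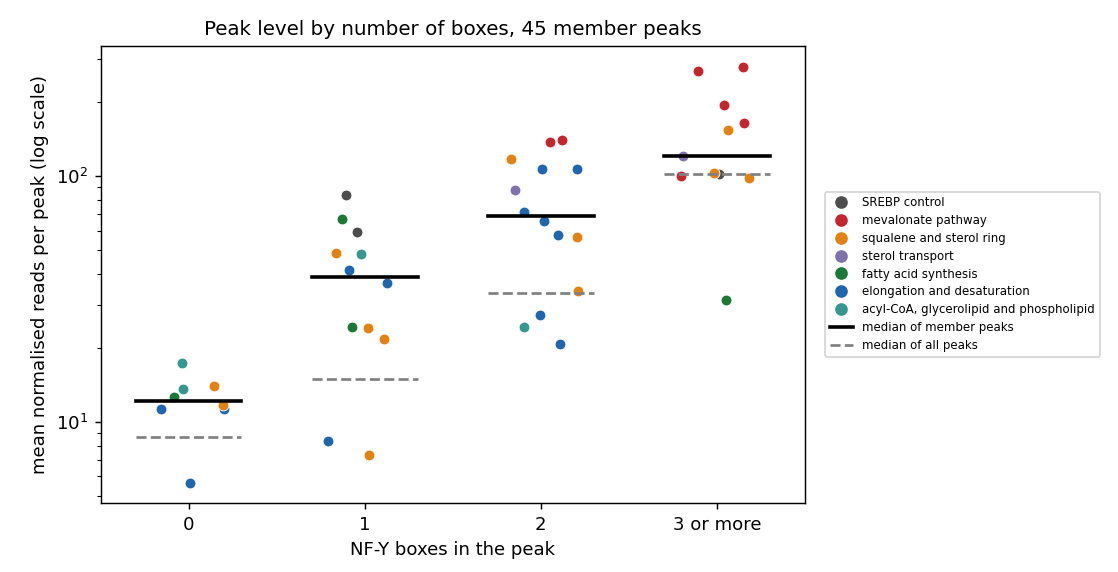
Mean normalised reads (log axis) of the 45 member peaks by the number of CCAAT boxes in the peak, colored by role. Black bars are medians of member peaks (12.2, 39.0, 68.5 and 121) and grey dashed bars are medians of all peaks (8.67, 15, 33.3 and 102).

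The boxes in member promoter peaks were mostly on the strand opposite to the gene. Of 70 boxes, 47 (67.1%) were opposite, compared with 49.0% of the 5795 boxes in promoter peaks of protein-coding genes. Counting only the box nearest to the centre of each peak gave 20 of 31 (64.5%), compared with 49.5% of 2833. The share differed between roles. It was 20 of 25 in the mevalonate pathway, 10 of 13 in the ring steps and 5 of 5 in SREBP control, whereas it was 4 of 12 in elongation and desaturation and 3 of 7 in sterol transport. Fatty acid synthesis had 3 of 5 and the acyl-CoA and phospholipid genes had 2 of 3. Boxes of 1 peak share a promoter and are not independent. Relative to the listed start, 68.6% of the 70 boxes lay upstream, compared with 76.9% of all.

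Neighbouring boxes on 1 strand recurred at similar distances. Among 32 such pairs in peaks of the list, including those at a transcript start under another name, 6 lay 30 to 32 bp apart (18.8%, with 13.5% of 2835 pairs in all peaks). *Hmgcs1* and *Idi1* had pairs at 31 bp, as did *Stard4* at 2 of its 3 pairs, *Ebp* at 30 bp and *Fdft1* at 32 bp. Another 7 pairs lay 40 to 44 bp apart (21.9%, with 14.9% in all peaks), in *Ggps1*, *Msmo1*, *Elovl6*, *Insig1*, *Idi1*, *Scd1* and *Scd2*. A further 5 lay 50 to 54 bp apart (15.6%, with 6.49% in all peaks), in *Mvk*, *Sqle*, *Elovl5* and *Insig1*. These distance classes were set after the distances had been seen, and the 2 sets of pairs are not separate.

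**Figure D5:**
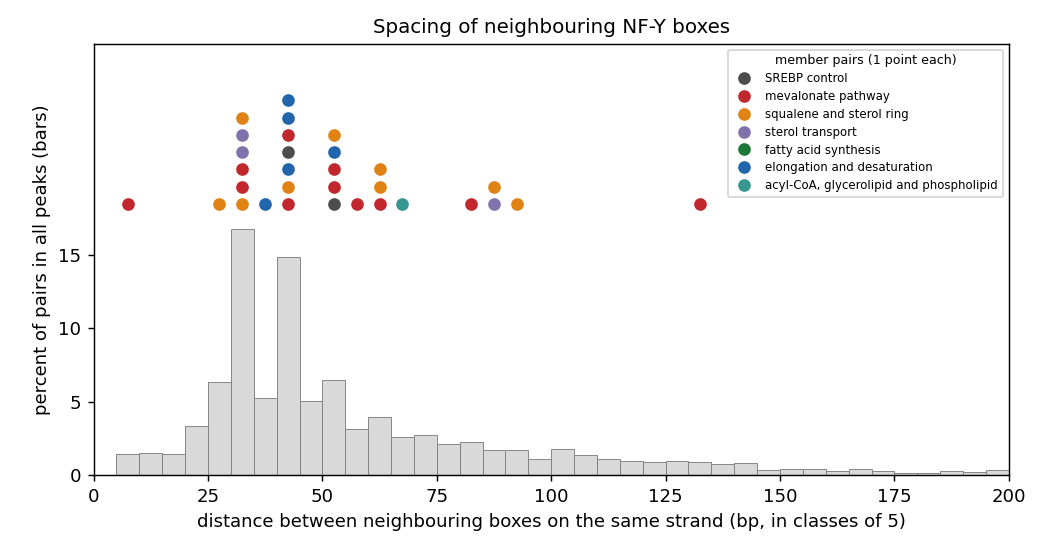
Distances between neighbouring boxes on the same strand, in classes of 5 bp. Grey bars give the percent of 2835 pairs in all peaks and each point is 1 of the member pairs, stacked above its class and colored by role, so that the height of a stack counts pairs and is not read on the axis. Both sets are most frequent at 30 to 34 and 40 to 44 bp. The longest member pair, 248 bp in *Idi1*, is outside the plot.

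The sterol element TCACNCCAC, searched on both strands, occurred exactly in 1 of 33 member promoter peaks (3.03%, *Hmgcs1*), compared with 0.908% of all promoter peaks. With 1 mismatch allowed it occurred in 17 of 33 (51.5%), compared with 25.5% of all promoter peaks. Among all promoter peaks in the middle length range of the members it was 29.5%. Elements within 30 bp of a box included those in *Hmgcs1* (19 bp), *Msmo1* (6 and 15 bp), *Fdft1* and *Fads1* (16 bp each), *Hsd17b7* (22 bp), *Srebf2* (25 bp) and the weak upstream peak of *Elovl5* (26 bp). That *Hmgcs1* element had 1 mismatch, and the exact *Hmgcs1* element was 41 bp from the nearest box. GGGCGG, an Sp1-type box, was in 72.7% of member promoter peaks and 65.7% of all.

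RefSeq promoter windows, from 250 bp before to 50 bp after a start, matched 37 of the 46 genes. CCAAT was present in 30 of them (81.1%), compared with 41.1% of 27025 genes. It was present in 22 of 25 genes with an annotated peak and in 8 of 12 without one. Genes without an annotated peak thus often had a box in this window too. They include *Srebf1* and *Nsdhl*, with a box in the window, and *Acaca*, without one, which each had a peak near a start that was not annotated to them. The *Acaca* peak itself held 1 box. The exact sterol element occurred in 3 windows (8.11%, with 1.44% of all genes), those of *Hmgcs1*, *Acsl1* and *Pcyt1a*.

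Agreement between libraries was described by the coefficient of variation. Its median over 3 libraries was 16.7% for member promoter peaks and 19.6% for all promoter peaks, and counting alone would give about 13.4% at the member levels. Member peaks together held 0.974%, 0.957% and 0.992% of the summed values of replicates 1, 2 and 3.

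Other lipid genes, listed by role alongside the members, were counted in the same way. Of 86 such genes, 28 (32.6%) had an annotated peak and 25 (29.1%) a promoter peak, with a median level of 50.2 normalised reads. The highest were *Osbp*, an oxysterol-binding protein, with 543, 536 and 557 (545 ± 10.7), *Hsd17b12*, the ketoacyl-CoA reductase of chain elongation, with 319, 315 and 322 (319 ± 3.51), and *Osbpl2* with 133, 124 and 121 (126 ± 6.24). *Osbp* lay above *Mvk* in each library. By role, a peak was annotated to 6 of 9 further genes of sterol synthesis and transport, 9 of 22 of glycerolipids and phospholipids, 4 of 12 lipogenic regulators and cofactors, 3 of 12 of chain elongation and desaturation, 2 of 9 of sterol response and efflux, 2 of 10 that use isoprenoids, 1 of 5 acyl-CoA synthetases and 1 of 7 of SREBP processing. The share over all protein-coding genes was 19.0%.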

How the data were processed

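CUT&RUN was done on 3 NF-YA and 3 IgG samples, and the 3 NF-YA libraries were used. Per the labels and methods, the authors trimmed reads with Trimmomatic 0.39, aligned them with STAR 2.7.9a to mm10, removed duplicates with Picard 2.25.5 along with spliced and multi-mapping reads, called peaks with MACS for every NF-YA library, using the matching IgG as control, at a false discovery rate of 0.05, unified them, counted reads with featureCounts and normalised with DESeq2 1.30.0. Values were deposited as a score, the reads of each peak scaled by the size factor of its library and then rounded by the authors. A change of all peaks together is thus not visible, and peaks were selected on the same libraries. Each peak was annotated by the authors to the nearest gene with a TSS within 10000 bp. The table had 0 unassigned per-sample columns.

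From these values, means, SDs and log2 ratios of medians within each library were computed. Reads in peaks were estimated from the value of 1 read in each library, and such estimates and floors cover counting error only. No count model was used, since 1 group allows no comparison and the reads of single peaks could only be approximated from rounded values. Starts in the file count from 0 and are printed from 1. Transcript starts came from GENCODE M21. The members, roles and lists were chosen with earlier results of these data known. Genes were named by a rule: every member is accounted for, with per-library values for promoter peaks of the mevalonate, sterol ring and SREBP control roles and the 3 strongest of the others, for further lipid genes the 3 highest promoter peaks, and other genes only where they share a member peak. *Srebf1*, *Nsdhl*, *Acaca*, *Elovl6*, the second peaks and the weaker members with values were added after their values were seen. Functions were tested on simulated data. Python 3.11.15, numpy 2.4.6, scipy 1.17.1, pandas 2.3.3, pysam 0.24.0 and matplotlib 3.10.9 were used. Alternatives covered TSS distances, a minimum mean of 10, values per kb, other motif windows and leaving out each library. Sequences are shown for some of the peaks, and 1 stretch is not reported here.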

Additional observations from a re-analysis of the deposited data

How the results depend on the processing

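No log2 ratio of levels changed sign under the alternatives run. For the counts, shares and spread no reversal was defined. Of 33 alternatives, 14 moved a value beyond the limit set for it and 19 did not. Counts of genes with an annotated peak (32 to 33) and with a promoter peak (30 to 35) stayed within 1.5 times the reported counts. The log2 ratio of member over all promoter peaks, 1.10, was 0.61 per kb of peak, 0.65 with a minimum mean of 10, 1.01 with the strongest peak of each gene, 1.28 with any transcript start, and 1.05 to 1.13 when each library was left out in turn. Chosen after seeing the data, leaving out peaks at a start shared with another protein-coding gene gave 0.95, and leaving out the mevalonate pathway gave 0.71. Also chosen after seeing the data, the mevalonate median per kb of peak was 1.51 log2 units above all promoter peaks, 1.48 above the ring genes and 1.31 above the fatty acid and phospholipid genes, and 1.29 above the ring genes with the strongest peak at any transcript start. The share with CCAAT, 78.8%, was 93.9% over the whole peak, and 36.4% for the longer NF-Y consensus (34.1% of all promoter peaks). The sterol element share, 3.03%, was 51.5% with 1 mismatch. The median coefficient of variation of the 45 member peaks, 16.8%, was 11.7% without replicate 1, 15.8% without replicate 2 and 14.9% without replicate 3. The share of boxes on the opposite strand, 67.1%, was 60% without the mevalonate pathway and 69.1% without shared starts, also chosen after seeing the data. No paired analysis was possible because only 1 group, NF-YA, had values. Peaks near the level of 3 reads, 2 of the 45, cannot be ordered at this depth.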
